A study of Homo sapiens with 6 samples.

Results

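CXCL8, CXCL2 and 8 further genes known as early targets of the transcription factor NF-kB were followed in cells depleted of TET1, TET2 and TET3, the dioxygenases that oxidise 5-methylcytosine in DNA. The 10 genes are CXCL1, CXCL2, CXCL3, CXCL5, CXCL6, CXCL8, CCL2, NFKBIA, TNFAIP3 and IER3. They were chosen by gene symbol, with their differences between the siRNA groups already known, so the values of that comparison describe them and are not a test. Every probe set that the platform annotation assigns to one of these symbols alone was taken, which gave 17 of 54613 probe sets. Total RNA was hybridised to 6 Affymetrix arrays in a single colour. The cells were Flp-In T-REx 293, a derivative of HEK293, the human embryonic kidney line, made for inserting a transgene at a fixed site.

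In 3 arrays the cells had received siRNAs against TET1, TET2 and TET3 together, and in the other 3 arrays a non-targeting siRNA pool. RNA was taken at 96 h in both groups. Each group holds the same 3 clones, numbered 1 to 3 in the labels, so every clone gives 1 array under TET siRNA and 1 under non-targeting siRNA. Both groups carry a GFP transgene under an inducible promoter, and no inducer was given. No inflammatory stimulus is named in the labels, so the signals are those of cultures without one as far as the labels say.

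NF-kB dimers are held in the cytoplasm by inhibitor proteins of the IkB family, of which NFKBIA encodes IkB-alpha. Signals from cytokine and pattern receptors lead to phosphorylation and loss of the inhibitor, and the dimers then enter the nucleus and bind kappaB sites near their targets. Among the first targets are the CXC chemokines that attract neutrophils, the monocyte attractant CCL2, and NFKBIA and TNFAIP3 themselves, whose products shut the response down again.

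The kappaB sites of the member promoters are shown because they are the sequence feature most of these genes share, whether or not their signals differed. RefSeq promoters (GRCh38.p14, 250 bases before to 50 bases after the annotated start) were given for 8 of the 10 genes. A nine-letter core, GGAANTTCC, which reads alike on both strands, was found in 7 of the 8, while 0.965% of all 35116 promoters in the table hold it. The longer consensus of NF-kB, searched by its 10 letters on both strands and overlapping the core, was also found in 7 of the 8, against 5.91% of all promoters. CXCL8 has the core and lacks the 10-letter match, and TNFAIP3 has the 10-letter match alone. A match describes the letters of the window and does not show that a factor binds there. The genes were listed as NF-kB targets, and several of the CXC promoters are alike over much of the window. The shares are therefore a description and not a test. Each line below gives 20 bases on either side of the match, 5′ to 3′ on the strand of the gene, with the matching letters in capitals (for TNFAIP3, its 2 10-letter matches).
CXCL8, chr4:73740458-73740506, plus strand: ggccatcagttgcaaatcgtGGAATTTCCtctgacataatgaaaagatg
CXCL2, chr4:74099244-74099292, minus strand: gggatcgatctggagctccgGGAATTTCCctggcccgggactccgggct
CXCL1, chr4:73869295-73869343, plus strand: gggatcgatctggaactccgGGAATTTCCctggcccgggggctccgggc
CXCL3, chr4:74038739-74038787, minus strand: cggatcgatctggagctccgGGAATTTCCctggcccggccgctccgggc
CXCL6, chr4:73836569-73836617, plus strand: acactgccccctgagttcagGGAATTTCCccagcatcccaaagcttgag
CXCL5, chr4:73998739-73998787, minus strand: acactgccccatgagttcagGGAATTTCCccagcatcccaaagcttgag
NFKBIA, chr14:35404802-35404850, minus strand: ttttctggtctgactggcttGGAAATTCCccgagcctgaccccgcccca
TNFAIP3, chr6:137867172-137867233, plus strand: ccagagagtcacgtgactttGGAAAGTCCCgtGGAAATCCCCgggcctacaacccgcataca

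The 6 CXC promoters carried the same 9 letters, GGAATTTCC, and differed in what surrounds them. The first base of the core lay 91 bases upstream of the annotated start in CXCL8, 77 in CXCL2, 78 in CXCL1 and CXCL3, 89 in CXCL6 and 90 in CXCL5. In global alignments of the 300 bases, CXCL1 and CXCL3 were 82.5% identical, CXCL2 and CXCL3 73.7%, CXCL1 and CXCL2 69.8%, and CXCL5 and CXCL6 83.1%. CXCL8 was 43.1 to 44.7% identical to CXCL1, CXCL2, CXCL3 and CXCL6. CXCL8 alone of the 8 held an AP-1 site (TGANTCA, both strands), whose first base lay 137 bases upstream; 7.71% of all promoters hold one.

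The promoters also differed in CpG dinucleotides, the sites at which TET enzymes act. CXCL8 had 4 CpGs in its 300 bases, and 29.6% of all promoters had as few or fewer. CXCL2 and CXCL1 had 22 each and CXCL3 had 24, above the median of 14 over all promoters. CXCL6 and CXCL5 had 8 and 9, NFKBIA had 22 and TNFAIP3 had 35. The whole windows of CXCL8 and CXCL2, which have the largest differences below among the probe sets bright enough to test, are printed with the core in capitals to show how unlike they are outside it.
CXCL8, chr4:73740319-73740618, plus strand: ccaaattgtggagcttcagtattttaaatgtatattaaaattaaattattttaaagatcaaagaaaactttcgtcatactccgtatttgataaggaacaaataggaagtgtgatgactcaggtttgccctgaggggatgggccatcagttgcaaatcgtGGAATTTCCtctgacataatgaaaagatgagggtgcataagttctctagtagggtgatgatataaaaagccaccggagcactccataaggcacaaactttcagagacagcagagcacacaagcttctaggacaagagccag
CXCL2, chr4:74099146-74099445, minus strand: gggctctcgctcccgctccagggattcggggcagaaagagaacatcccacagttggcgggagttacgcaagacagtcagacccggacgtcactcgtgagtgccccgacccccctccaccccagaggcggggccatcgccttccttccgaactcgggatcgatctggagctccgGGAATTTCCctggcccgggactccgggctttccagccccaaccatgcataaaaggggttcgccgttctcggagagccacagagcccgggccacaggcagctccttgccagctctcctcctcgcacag

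The arrays had been scaled by the authors to a trimmed mean signal of 1000 each. The brightest TET1 probe set was at 14.6, 19.9 and 19.7% of control in clones 1, 2 and 3 (limma adjusted p = 0.00225). TET2 and TET3 were depleted less, with 46.8% (39.6 to 53.9% by clone) and 42.9% (34.8 to 47.9%) of control remaining at their brightest probe sets. Neither was called without the clone term (limma adjusted p = 0.198 and 0.0678), and both were with it as a replicate block (0.00468 and 0.00206). Of 9 HEK293 marker genes with a probe set, 8 lay above the brightness filter, and their summed signal was 63620 to 76330 under TET siRNA and 74570 to 79770 under non-targeting siRNA. Leukocyte markers, listed because leukocytes are rich in these chemokines, were dim: 1 of 8 with a probe set (CSF1R) passed the filter, the CD14 and PTPRC signals averaged 26.7 and 31.9 under TET siRNA and 20.3 and 23.3 under non-targeting siRNA, and the list summed to 389 to 520 under TET siRNA and 350 to 540 under non-targeting siRNA. Of 9 fibroblast and endothelial markers 3 passed, with sums of 1448 to 1698 under TET siRNA and 1590 to 1924 under non-targeting siRNA. The filter ranks probe sets on brightness averaged over the 6 arrays as log2, whatever the group, and keeps the upper 50%. The dimmest kept has a geometric mean of 117.

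Of the 17 member probe sets, 9 passed this filter, for 8 genes. CXCL5 and CCL2 have no probe set above it, and their values are given as those of dim probe sets. Signals of different probe sets are not on a common scale, so levels are compared between arrays and not between genes. In bulk RNA, fewer or more cells making a transcript and less or more of it per cell cannot be told apart.

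CXCL8 encodes interleukin-8, a neutrophil attractant acting through CXCR1 and CXCR2. Its brighter probe set (202859_x_at, Entrez gene 3576) had signals of 1000, 792 and 465 under TET siRNA in clones 1, 2 and 3, against 565, 371 and 171 under non-targeting siRNA in the same order. CXCL8 was higher under TET siRNA in each clone, yet the groups overlapped, because clone 3 under TET siRNA lay below clone 1 under non-targeting siRNA. The means were 752 ± 270 under TET siRNA and 369 ± 197 under non-targeting siRNA (SD, n = 3 each). Within the clones the level was 1.77, 2.14 and 2.72-fold that of the control, and the log2 difference averaged 1.12 ± 0.31 (SD over 3 clones).

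The dimmer CXCL8 probe set (211506_s_at) had signals of 136, 157 and 41.5 under TET siRNA and 95.5, 13.5 and 37.5 under non-targeting siRNA. It was also higher in all 3 clones, by 0.51, 3.54 and 0.15 on the log2 scale, with clone 2 far from the other two. Both CXCL8 probe sets carry a suffix of the array maker for probe sets that can match more than one transcript.

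CXCL2, a further CXCR2 ligand, was the other member with a large difference. Its brightest probe set (209774_x_at, Entrez gene 2920) had signals of 460, 465 and 348 under TET siRNA, against 201, 265 and 213 under non-targeting siRNA in clones 1, 2 and 3. Every TET siRNA array lay above every control array, which held for 1 of the 9 tested member probe sets and for 7.21% of all 27306 tested probe sets (6.77% of genes at their brightest probe set). The means were 424 ± 65.9 under TET siRNA and 226 ± 34.3 under non-targeting siRNA (SD, n = 3 each). The level was 2.29, 1.75 and 1.63-fold that of the control in the 3 clones, a mean log2 difference of 0.90 ± 0.26 (SD over 3 clones).

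The other CXCL2 probe sets did not show this. The probe set 1569203_at had 28.5, 26.6 and 34.3 under TET siRNA and 33.8, 26.0 and 40.4 under non-targeting siRNA, a log2 difference of -0.15. The probe set 230101_at stayed under a signal of 34 on all arrays and differed by -0.84 with an SD of 1.84 over clones. Both were below the filter. The bright CXCL2 probe set has such a suffix too, and whether related transcripts add to its signal was not tested.

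**Figure D1:**
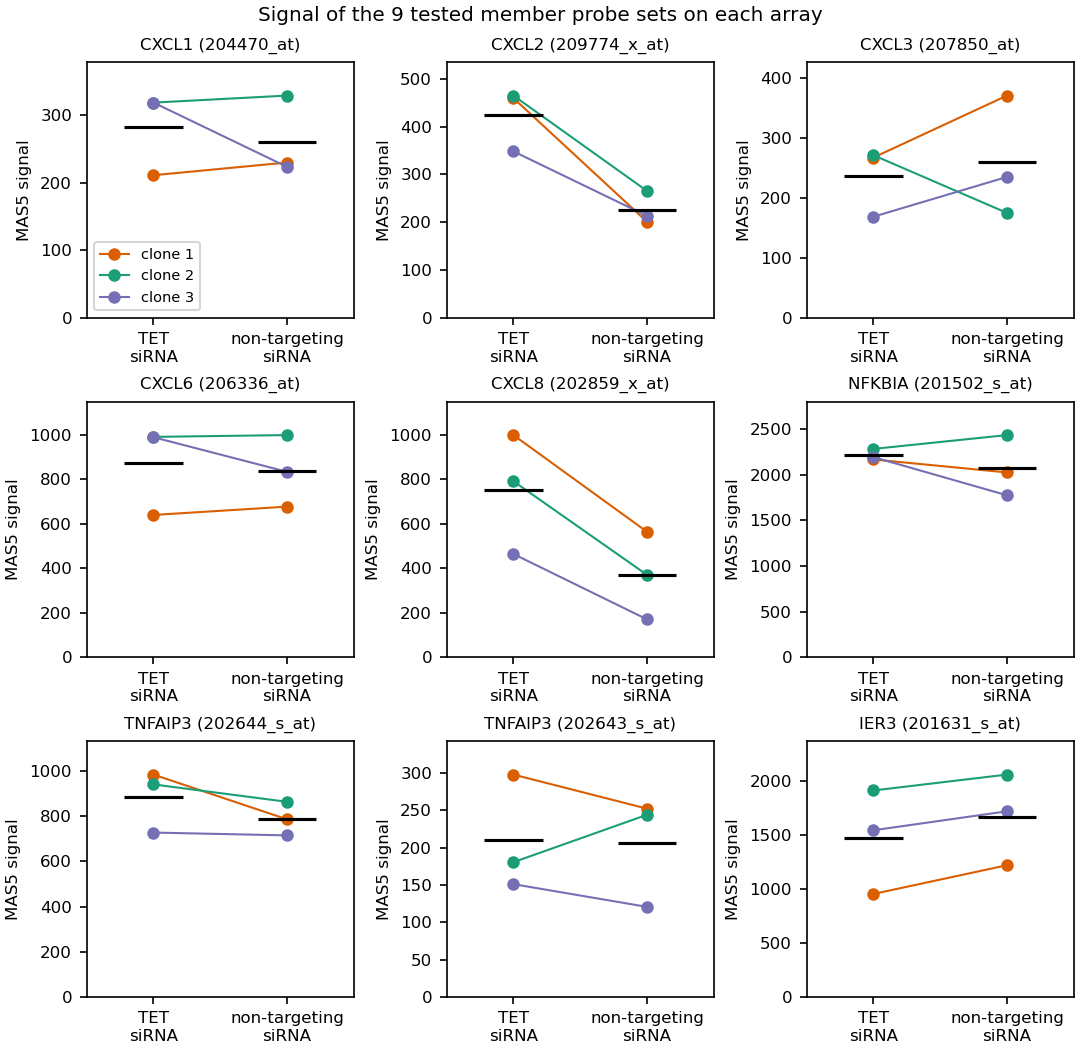
MAS5 signal (linear axis from 0) of the 9 member probe sets above the brightness filter on each of the 6 arrays, with TET siRNA left and non-targeting siRNA right. Points are arrays, lines join the arrays of a clone and black bars are group means. CXCL8 and CXCL2 slope the same way in all 3 clones, with CXCL2 at 348 to 465 under TET siRNA and 201 to 265 under non-targeting siRNA.

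CXCL1 and CXCL3, the nearest relatives of CXCL2 and also CXCR2 ligands, did not follow it. CXCL1 (204470_at) had 211, 319 and 319 under TET siRNA and 230, 329 and 224 under non-targeting siRNA, and was higher in clone 3 alone (log2 0.51, against -0.12 and -0.05 in clones 1 and 2). CXCL3 (207850_at) had 267, 271 and 168 under TET siRNA and 370, 175 and 234 under non-targeting siRNA, and was higher in clone 2 alone. Their mean log2 differences, 0.11 ± 0.35 and -0.11 ± 0.64 (SD over 3 clones), were smaller than their spread between clones. Neither probe set carries a cross-hybridisation suffix.

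CXCL6, an attractant acting through CXCR1 and CXCR2, had 639, 990 and 988 under TET siRNA and 677, 998 and 833 under non-targeting siRNA (206336_at). The arrays of clones 1 and 2 were nearly level and clone 3 was higher by 0.25 on the log2 scale, for a mean difference of 0.05 ± 0.17 (SD over 3 clones). CXCL5, its closest relative, was dim at all 3 of its probe sets. The brightest (214974_x_at) had 37.9, 25.7 and 28.8 under TET siRNA and 32.9, 25.2 and 43.8 under non-targeting siRNA, and the other 2 stayed under a signal of 41 with differences of both signs.

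CCL2, the monocyte attractant that acts through CCR2, had signals of 57.2, 4.84 and 36.5 under TET siRNA and 6.28, 4.15 and 31.9 under non-targeting siRNA (216598_s_at). The mean log2 difference of 1.20 came from clone 1, at 3.19, while clones 2 and 3 gave 0.22 and 0.19. At so dim a probe set no change can be read from these values.

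The feedback genes stayed near their control levels. NFKBIA, the gene of IkB-alpha, had 2167, 2283 and 2193 under TET siRNA and 2025, 2434 and 1775 under non-targeting siRNA (201502_s_at), a log2 difference of 0.10 ± 0.20 (SD over 3 clones) with clone 2 lower. Its dim probe set (231699_at) differed by -1.93, 3.03 and 0.60 in clones 1, 2 and 3. TNFAIP3 encodes A20, a ubiquitin-editing enzyme that ends NF-kB signalling. At its brighter probe set (202644_s_at) it had 985, 941 and 728 under TET siRNA and 786, 864 and 715 under non-targeting siRNA, higher in all 3 clones by 0.16 ± 0.15 on the log2 scale, with overlapping groups. At the dimmer one (202643_s_at) clone 2 went the other way and the mean was 0.04.

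IER3, an immediate early gene whose product modulates cell survival, was the 1 tested member lower in all 3 clones, as were 15.7% of all tested probe sets. It had 951, 1908 and 1540 under TET siRNA and 1216, 2055 and 1715 under non-targeting siRNA (201631_s_at), a log2 difference of -0.21 ± 0.13 (SD over 3 clones). The groups overlapped widely. Without TET siRNA replicate 1 alone, the lowest array, the difference was 0.08, but this leaves the low clone 1 in the control group only. Without both arrays of clone 1 the difference was -0.13.

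**Figure D2:**
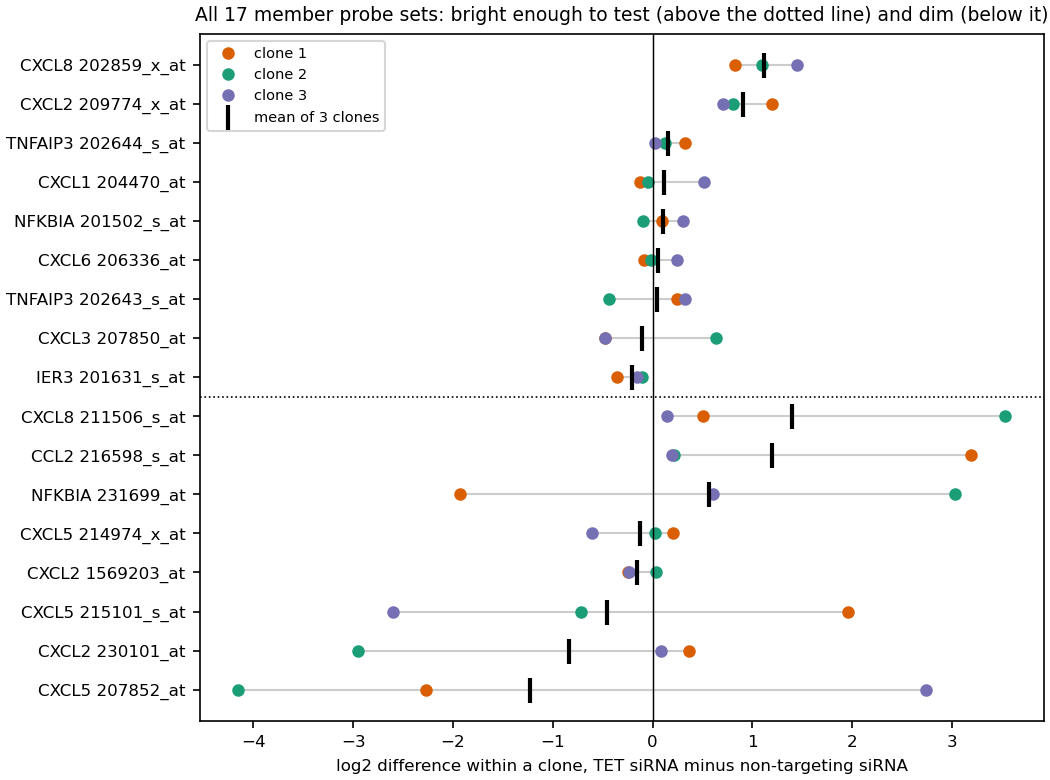
Log2 difference within each clone (TET siRNA minus non-targeting siRNA) for all 17 member probe sets, with coloured points for clones and a black bar for their mean. Above the dotted line are the 9 probe sets that passed the brightness filter, where CXCL8 (mean 1.12) and CXCL2 (0.90) stand to the right of the others, and below it the 8 dim ones, of which 6 have clones on both sides of 0.

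Over the 10 genes, each at its brightest probe set and without any filter, 7 had a positive mean difference and the median was 0.11 on the log2 scale, with 0.15, 0.07 and 0.22 in clones 1, 2 and 3. The median was 0.11 over the 7 chemokines and 0.10 over NFKBIA, TNFAIP3 and IER3. CCL2, too dim to be read, is among the genes with a positive difference, and the median was also 0.11 over the members that passed the filter. Over all 12318 tested genes the median was 0.01, and 6396 of them were higher. In limma without a clone term 0 of the 9 tested member probe sets passed an adjusted p of 0.05 (2 had an unadjusted p under 0.05), beside 0.0146% of all tested probe sets (6.61% unadjusted). With the clone as a replicate block 2 passed, the bright probe sets of CXCL8 and CXCL2, both higher, beside 1.03% of all tested probe sets in either direction, 0.385% called as higher and 0.648% called as lower. With the block CXCL2 no longer passed without clone 1 or without clone 3, CXCL8 passed with any 1 clone left out, and neither passed without limma's variance trend and robust step. Nothing is read from these counts, since the genes were picked from this same comparison.

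Among all tested probe sets ordered by their difference, CXCL8 stood 27th and CXCL2 82nd from the top, and 0.194% and 0.546% had a difference of larger size. For the other 7 tested member probe sets this share was 30.3 to 80.6%. TNFAIP3 (40.8%) and IER3 (30.3%) came next after CXCL2, in opposite directions. These ranks and shares describe genes that were picked with this comparison known, and are not a test of them.

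The clones were then compared, since this contrast is balanced over the siRNA groups and was not itself used to choose the genes. Its test shares the residual spread of the siRNA fit with the replicate block, so it is not fully independent of that choice. CXCL8 and IER3 differed between clones, with clone 1 highest for CXCL8 and lowest for IER3. The clone number is also the replicate number, with 1 array per clone and siRNA. A difference between clones therefore cannot be told apart from one between cultures or array batches that followed this number. The geometric mean CXCL8 signal was 751 in clone 1, 542 in clone 2 and 282 in clone 3, and clone 1 was above clone 2 and clone 2 above clone 3 under both siRNAs. IER3 was lowest in clone 1, at 1076, with 1980 in clone 2 and 1625 in clone 3, again in the same order under both siRNAs. In limma's F test over the 3 clones, adjusted over all tested probe sets, the adjusted p was 0.00364 for CXCL8 and 0.00319 for IER3. These were 2 of the 9 tested member probe sets, where 8.27% of all tested probe sets passed. At an unadjusted p under 0.05 these and CXCL6 and the dimmer TNFAIP3 probe set made 4 of 9, beside 23.7% of all.

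Clone 1 minus clone 3, the widest clone pair, gave 1.42 on the log2 scale for CXCL8 (SE 0.195, limma adjusted p = 0.00217), a 2.67-fold difference. Between these clones 7.53% of all tested probe sets were called. The 95% interval of this CXCL8 difference, 0.99 to 1.84, contains the mean difference of 1.12 between the siRNA groups. Whether one exceeds the other was not tested. Clones 1 and 2 differed by 0.47 (95% interval 0.04 to 0.90, limma adjusted p = 0.15) and clones 2 and 3 by 0.94 (0.52 to 1.37, limma adjusted p = 0.203), so these neighbours in the order were not called. For IER3 clone 1 minus clone 2 was -0.88 (SE 0.119, limma adjusted p = 0.0015, beside 10.7% of probe sets called) and clone 1 minus clone 3 was -0.60 (limma adjusted p = 0.0133), while clones 2 and 3 differed by 0.28 (95% interval 0.03 to 0.55) and were not called. CXCL6 resembled IER3, with 658 in clone 1, 994 in clone 2 and 907 in clone 3, and narrowly missed the threshold (F test, limma adjusted p = 0.051). Over the 11 alternatives run, its limma adjusted p was 0.0345 to 0.386 and passed in 2, without TET siRNA replicate 2 (0.0345) and among the upper 30% of probe sets (0.0405).

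The remaining members were not called between clones. CXCL2 had F test adjusted p-values of 0.56 in limma, and its geometric means were 304, 351 and 272 in clones 1, 2 and 3. The CXCL2 order thus did not repeat that of CXCL8, with clone 2 highest. Adjusted p-values for CXCL1, CXCL3, NFKBIA and the 2 TNFAIP3 probe sets were 0.116 to 0.36. With 2 arrays a clone, both calls rest on the moderated spread, and in simulated data this fit made more false calls than its threshold allows: without limma's variance trend and robust step the adjusted p was 0.161 for CXCL8 and 0.163 for IER3. The IER3 call was also lost without TET siRNA replicate 1 (limma adjusted p = 0.0682), and the CXCL8 call held in limma with any single array left out (0.000362 to 0.0437). CXCL8 and CXCL2 fall below the filter that keeps the upper 30% of probe sets, so neither was tested in that alternative.

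**Figure D3:**
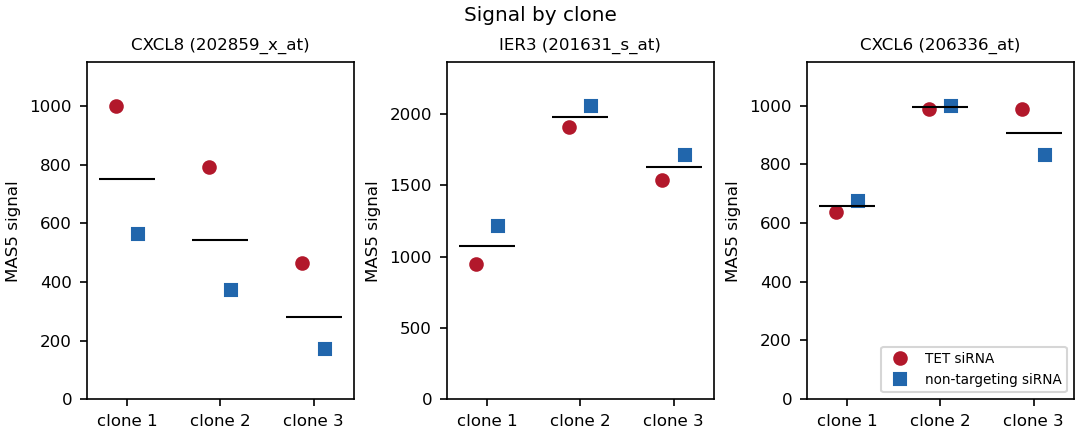
MAS5 signal (linear axis from 0) of CXCL8, IER3 and CXCL6 by clone, with TET siRNA (circles) left of non-targeting siRNA (squares) and a bar for the geometric mean of both. CXCL8 runs from 751 in clone 1 to 282 in clone 3, while IER3 and CXCL6 are lowest in clone 1, at 1076 and 658.

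By position the 6 CXC members lie in one cluster on chromosome 4, in the order CXCL8, CXCL6, CXCL1, CXCL5, CXCL3 and CXCL2, with PF4V1, PF4 and PPBP between them. CXCL8 and CXCL2 stand at opposite ends of this cluster. PF4, platelet factor 4, had 299, 398 and 362 under TET siRNA and 229, 251 and 250 under non-targeting siRNA, so all TET siRNA arrays lay above the controls (log2 0.53 ± 0.14, SD over 3 clones; limma adjusted p = 0.682, and 0.215 with the replicate block). PF4V1, a near copy of PF4, had 218, 149 and 101 under TET siRNA and 133, 121 and 66.5 under non-targeting siRNA (log2 0.54; limma adjusted p = 0.856). Since PF4 and PF4V1 are near copies, their probe sets may share transcripts. PPBP was dim.

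Outside the cluster, RASSF6 on the side of CXCL8 had 281, 174 and 401 under TET siRNA and 208, 119 and 181 under non-targeting siRNA (log2 0.71; limma adjusted p = 0.785, and 0.193 with the replicate block). MTHFD2L on the side of CXCL2 differed by -0.14 (limma adjusted p = 0.925). Of the 9 tested genes from the 3 neighbours on one side to the 3 on the other, 5 were higher in all 3 clones. CXCL8 and CXCL2, chosen with these values known, are among them, so nothing is read from that count. Of the 4 that are not members 3 were higher in all 3 clones, PF4, PF4V1 and RASSF6, beside 20.5% of all tested probe sets. PF4 and PF4V1 may not count separately, as said above. These neighbours were looked at after the values had been seen, and none of the 4 that are not members passed in either fit (1 of the 4, PF4, had an unadjusted p under 0.05 in limma without the clone).

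**Figure D4:**
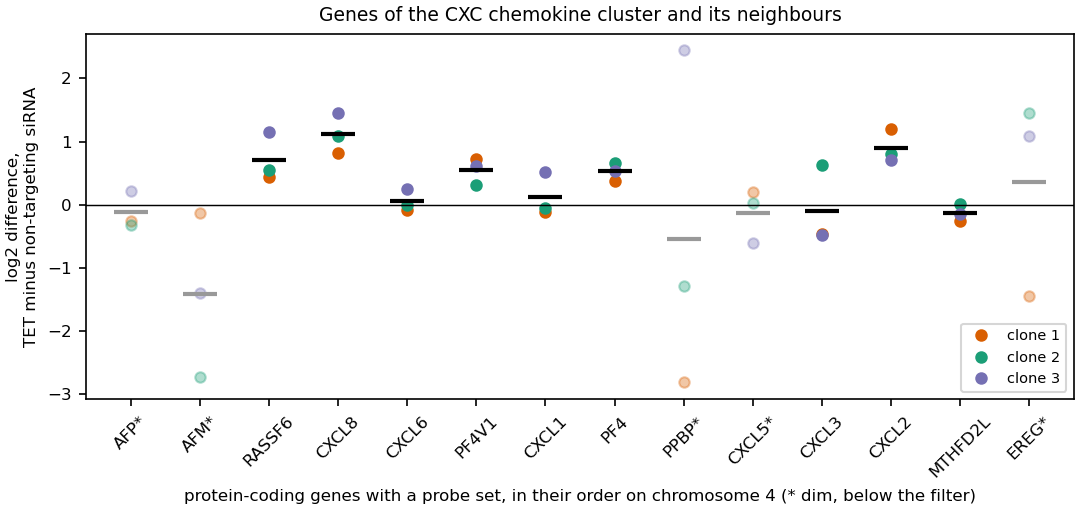
Log2 difference (TET siRNA minus non-targeting siRNA) of the genes of the CXC cluster and up to 3 protein-coding neighbours on each side, in their order on chromosome 4. Points are clones, bars are means, and genes marked * are dim and drawn faint. CXCL8 (1.12) and CXCL2 (0.90) stand near the ends of the cluster, with CXCL6 (0.05), CXCL1 (0.11) and CXCL3 (-0.11) between them.

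The profile of CXCL8 over the 6 arrays was compared with those of 12310 other tested genes, each at its brightest probe set, by the root mean square difference of centred log2 signals. The closest were DOCK8-AS1 (0.28), VIPR1 (0.29), a receptor for vasoactive intestinal peptide, APBB1 (0.32), MMP25 (0.37), a membrane-anchored metalloproteinase, and PF4V1 (0.37), where the median over all genes was 0.85. VIPR1 had 271, 209 and 179 under TET siRNA and 201, 119 and 36.5 under non-targeting siRNA. All 5 share with CXCL8 the order of clones under non-targeting siRNA, highest in clone 1 and lowest in clone 3. Since they were picked by likeness over these arrays, the shared order is no separate result. Their signals in clone 3 under non-targeting siRNA were dim, from 36.5 for VIPR1 to 66.5 for PF4V1. Among the members CXCL2 was nearest to CXCL8, at 0.57, and IER3 was at 1.07. The genes were ranked over the same 6 arrays, and the measure is given as a description.

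The rest of the NF-kB pathway was read from lists of receptors, adaptors and kinases, subunits, inhibitors and further targets. Of 86 listed genes 58 were tested, 28 of them higher and 30 lower, with a median log2 difference of -0.01, against 0.01 over all tested genes. In limma without the clone 0 of the 58 passed (3 had an unadjusted p under 0.05), beside 0.0162% of all tested genes (6.95% unadjusted). With the replicate block 2 passed, CYLD and MAP3K7, both lower, beside 1.32% of all tested genes. These blocked calls were lost for CYLD without clone 1 or clone 3 (limma adjusted p = 0.185 and 0.109), for MAP3K7 without clone 3 (0.18), and for both without limma's variance trend and robust step (0.32 and 0.323).

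CYLD, a deubiquitinase that restrains NF-kB by removing ubiquitin chains from its signalling proteins, had 512, 596 and 585 under TET siRNA and 1061, 878 and 856 under non-targeting siRNA. All TET siRNA arrays lay below all controls, as for 5.5% of all tested probe sets, and the log2 difference was -0.72 at its brightest probe set (limma adjusted p = 0.261, and 0.0342 with the replicate block). Its other 4 tested probe sets differed by -0.41, -0.55, -0.77 and -0.03. MAP3K7 encodes TAK1, the kinase that activates the IkB kinase complex, and so acts in the opposite sense to CYLD. It had 2458, 1855 and 2004 under TET siRNA and 3101, 2961 and 2710 under non-targeting siRNA, a log2 difference of -0.48 (limma adjusted p = 0.465, and 0.0292 with the replicate block). The next brightest MAP3K7 probe set differed by -0.55 (limma adjusted p = 0.137, and 0.00928 with the block), and the other 2 by -0.22 and -0.20.

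No other pathway list held a called gene. Of 8 tested receptors 6 were higher, with a median of 0.07, IL17RC at -0.22 and the double-stranded RNA receptor TLR3 at 0.27. Of 3 tested NF-kB subunits, RELA differed by -0.18 (0.21 at its dimmer probe set), NFKB1 by 0.14 and REL by -0.11. The 17 adaptors and kinases had a median of -0.05, with 7 higher and 10 lower, and the 14 inhibitors other than NFKBIA and TNFAIP3 had 0.06, with 9 higher and 5 lower. Among these inhibitors NFKBIB, which encodes IkB-beta, differed by 0.38 at its brightest probe set, and by 1.05 (limma adjusted p = 0.544, and 0.14 with the block) and -0.15 at its other 2, so its probe sets disagreed.

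Of 28 further NF-kB targets with a probe set 16 were tested, and IL6, TNF, CCL20 and CXCL10 are among those below the filter. The 16 did not move with CXCL8: 5 were higher and 11 lower, the median was -0.05, and the range was -0.32 to 0.22. GADD45B, a stress-inducible gene of the GADD45 family, was at -0.32 with all TET siRNA arrays below the controls (limma adjusted p = 0.754, and 0.259 with the replicate block). Its other 3 tested probe sets gave -0.29 to -0.36. SAT1, an enzyme of polyamine breakdown, was at 0.22 and at -0.01 and -0.02 at its other probe sets. CXCR4, the 1 chemokine receptor above the filter of 13 with a probe set, differed by -0.09 at its brightest probe set. Its other tested probe sets went the other way, at 0.08 and 0.15. CXCR1 and CXCR2, the receptors of CXCL8, were below the filter. Of the other chemokines 3 of 18 with a probe set were tested, PF4 at 0.53, CXCL16 at 0.09 and CX3CL1 at -0.07.

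Immediate early genes, which respond to growth factors and stress as well as to NF-kB signals, were split. Of 23 tested, 10 were higher and 13 lower, the median was -0.03, and 0 passed in limma in either fit (3 had an unadjusted p under 0.05 without the clone). EGR1, a zinc finger factor, had 4906, 4278 and 4669 under TET siRNA and 3744, 3723 and 3458 under non-targeting siRNA. Its log2 difference was 0.34 (limma adjusted p = 0.473, and 0.0611 with the replicate block). KLF2, a Krüppel-like factor, had 413, 313 and 331 under TET siRNA and 426, 669 and 787 under non-targeting siRNA, with clone 1 nearly level. Its log2 difference was -0.80 (limma adjusted p = 0.602, and 0.146 with the replicate block). Interferon genes gave a median of 0.10 over 6 tested, 3 of them higher, with IFIT5 at 0.25 and the RNA sensor RIGI at 0.31, and 0 passed in limma in either fit (0 had an unadjusted p under 0.05).

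**Figure D5:**
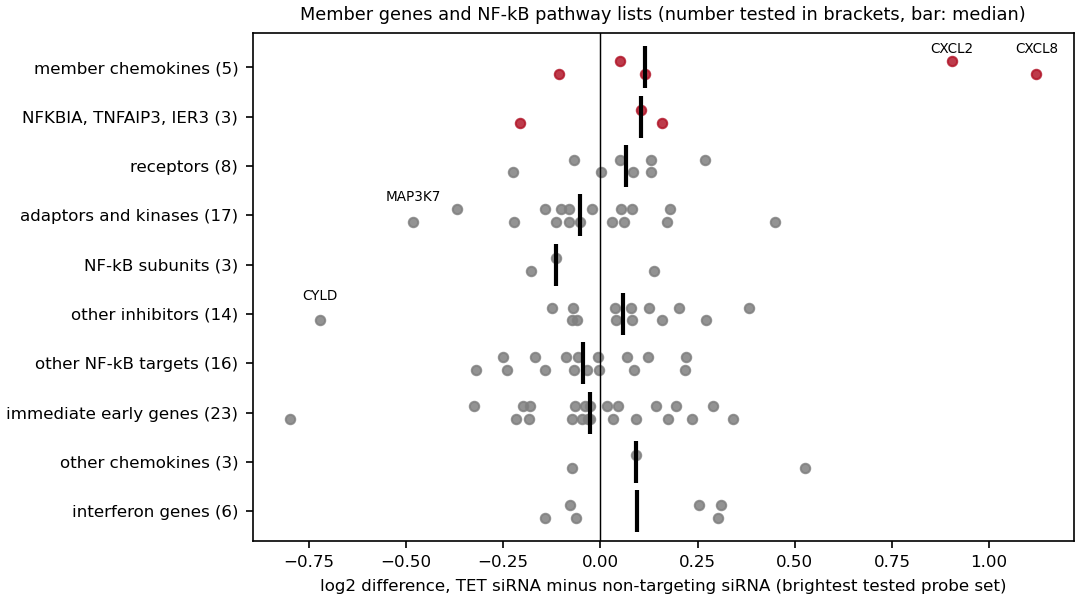
Log2 difference (TET siRNA minus non-targeting siRNA) of each tested gene at its brightest probe set, by list, with the number tested in brackets and a bar at the median. CXCL8 (1.12) and CXCL2 (0.90) lie beyond the range of the 58 pathway genes at these probe sets, -0.72 for CYLD to 0.45. A dimmer probe set of NFKBIB, not drawn, was at 1.05.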

How the data were processed

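The deposited values are intensities on a linear scale, 1 column per array, made by the authors with MAS5, per the submitters' processing notes, with no version named. MAS5 works array by array and leaves dim probe sets noisy. Signals were taken to log2 with no pseudocount. Leaving out 62 control probe sets, the upper 50% of 54613 by mean log2 signal (27306) were fitted with limma 3.58.1 in R 4.3.3 (trended, robust empirical Bayes, two-sided, Benjamini-Hochberg adjusted p under 0.05), without a clone term. A gene was read at its brightest probe set. Probe sets with 1 platform symbol were named, with symbols updated through RefSeq (GRCh38.p14). Clones were compared by an F test in the fit with treatment and clone.

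The number of arrays limits the precision. The labels do not say whether arrays of a group came from separate transfections beyond the clones, so p-values measure the spread between these arrays. The clone number pairs the arrays: the 2 arrays of a clone deviated together from the group means, with correlations of 0.493, 0.234 and 0.236, although clone 2 under TET siRNA and clone 3 under non-targeting siRNA also gave 0.219. The pairing is taken from the labels. The members, the lists (186 genes in 12 lists, 171 with a named probe set and 103 tested) and the alternatives were chosen with earlier results of these data known. Named genes are all members, and per list the genes passing in either fit, up to 4, or else the 2 of smallest p without the clone, then the 5 genes nearest CXCL8 in profile. REL, CX3CL1, PF4V1, RASSF6, MTHFD2L and PPBP were named beyond this rule to complete a small group or the cluster, after their values were seen, and so were further probe sets of named genes and NFKBIB. Promoters were aligned with Biopython 1.88 (match 1, mismatch -1, gap opening -3, extension -0.5), and plots drawn with matplotlib 3.10.9. The fits were tested on simulated data, where those with a clone term made more false calls than the nominal share, so adjusted p-values from the clone comparison and the replicate block are likely too small.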

Additional observations from a re-analysis of the deposited data

How the results depend on the processing

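The bright CXCL8 probe set stayed higher under TET siRNA in all 11 alternatives (log2 0.65 to 1.51), lowest without non-targeting siRNA replicate 3 and highest without non-targeting siRNA replicate 1, since leaving out 1 array unbalances the clones; within clones it was 0.82 to 1.45. The bright CXCL2 probe set kept 0.76 to 1.04. Of 187 member values under alternatives, 178 moved by less than the SD over clones. That SD is wide at dim probe sets (3.56 for CXCL5 207852_at), so the count says little about them. IER3 ranged from -0.42 to 0.08, and was above 0 only without TET siRNA replicate 1, which also unbalances the clones. Without both arrays of clone 1 it was -0.13. The median of the 10 genes was 0.048 to 0.225 with arrays or clones left out, and positive in all 15 alternatives. In 12 of the 15 it moved by less than the SD of the clone medians (0.072). The alternative with no filter repeats the main value, since this median takes no filter. Nothing is read from its sign, since the genes were picked from this same comparison.

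The count of 4 called probe sets became 282 with the clone as a replicate block, 14 with the upper 30% of probe sets, 1 without the trend and robust steps, and 0 without these but with the block (3355 at an unadjusted p under 0.05, an alternative chosen after seeing the data, as were those for the pathway lists). It was 0 to 131 with arrays or clones left out, and with the block 103, 769 and 64 without replicates 1, 2 and 3. The count of 2259 differing between clones became 847 with no filter and 1 without the trend and robust steps, and was 437 to 4474 with an array left out: 442 without TET siRNA replicate 1, 437 without non-targeting siRNA replicate 1, 1379 without non-targeting siRNA replicate 3, and 3939 and 4474 without replicate 2 of TET siRNA or of non-targeting siRNA. In the 5 pathway lists the calls were 2 with the block, 2 without replicate 1, and with the block 1 and 2 without replicates 1 and 2. They were 0 otherwise. Without replicate 1 and without the block MAP3K7 was called (limma adjusted p = 0.0291) and CYLD was not (0.154), so the other call was of a different gene. TET1 was at 16.4 to 20.3% of control with arrays or clones left out, and missed the threshold at 17.9% without the trend and robust steps (limma adjusted p = 0.0548) and at 17% when clone 2 or clone 3 was left out (0.215 and 0.114). The cause of these shifts was not tested. The replicate block changed the calls of CXCL8, CXCL2, CYLD, MAP3K7, TET2 and TET3 as given above, and no other named gene's. Signal limits CXCL5 and CCL2, for which no probe set passed the filter.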
